A study of Rattus norvegicus with 4 samples.

Results

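Genes that hold cell death back or carry it out were examined in depolarized rat cortical neurons. The genes were Bcl2, Bcl2l1 and Faim2, which protect cells, and Bax, Casp1, Casp2 and Tnfrsf1a, which promote death or inflammation. All probe sets whose platform annotation named one of these 7 genes were taken, which gave 18 of the 1322 probe sets on the array (7 of 720 genes with a symbol). Neurons were prepared from rat cortex at embryonic day 17 and kept for 14 days in Neurobasal medium with B27. The 4 arrays formed 2 groups of 2, 1 treated with 25 mM KCl for 4 h and the other given phosphate-buffered saline for 4 h as control. The labels name no strain, sex or genotype and do not state that the cultures behind the arrays were separate, so each p-value measures array-to-array spread that may be technical. The titles and treatment protocols give the groups, while the description field calls all 4 samples non-activated. Fos, the immediate-early gene used to check that the KCl arrays responded, read 9745 and 9883 on the KCl arrays, against 720 and 646 on the control arrays, on its brightest probe set.

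The proteins studied meet at the mitochondrion and at the cell surface. Bax opens the outer mitochondrial membrane and lets out factors that activate caspases, while Bcl2 and Bcl-xL, the long product of Bcl2l1, bind Bax-like proteins and prevent this. Caspase 2 is an initiator protease of stress-induced death, and caspase 1 is the inflammasome protease that matures interleukin 1β. Tnfrsf1a encodes the death-domain receptor of tumour necrosis factor, and Faim2, found mainly in neurons, inhibits death signalled by Fas. Raised potassium depolarizes neurons, opens their voltage-gated calcium channels and is widely used to keep cultured neurons alive.

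Values are deposited probe set intensities in arbitrary units, and log2 changes are KCl minus control. A probe set was tested if its mean intensity over the 4 arrays was above 33.3, the lowest 25% being left out, and 947 were. A change passed at a limma adjusted p below 0.05, adjusted over all 947. Intensities at or below 73.7, the highest value of 19 bacterial and yeast control probe sets, are called within background. Of the 18 probe sets, 13 were tested, with at least 1 for each of the 7 genes. The 5 that were not tested, with all values within background, were 2 of Bcl2, 1 of Bcl2l1 and 2 of Casp1.

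**Figure D1:**
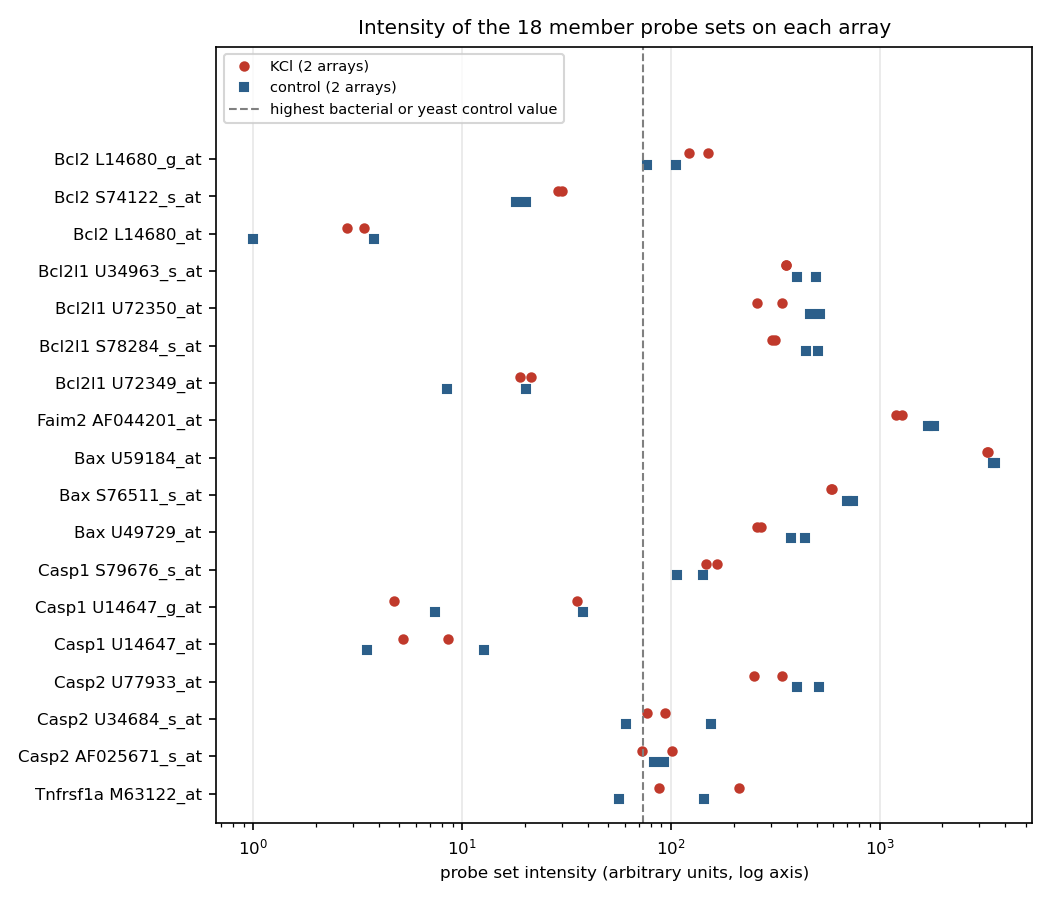
Intensity of each of the 18 probe sets (x axis, arbitrary units, log scale) on the 2 KCl arrays (circles) and the 2 control arrays (squares); the dashed line marks 73.7, the highest bacterial or yeast control value. The 3 brighter Bcl2l1 probe sets, Faim2 and all 3 Bax probe sets lay lower on both KCl arrays, and 5 probe sets lay wholly left of the line.

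After KCl, 4 of the 13 tested probe sets were lower and 0 higher, where 5.28% of all tested probe sets were lower, 5.49% higher and 10.8% either. They were 2 of 3 tested probe sets of Bcl2l1, that of Faim2 and 1 of 3 of Bax. The death-promoting side was thus represented by a single probe set, and the brightest of Bax did not pass. The falls were of 1.42 to 1.65-fold. The groups did not overlap in 10 of the 13, with KCl lower in 8 and higher in 2. Over all 947 the groups did not overlap in 58%, with KCl lower in 36.5% and higher in 21.4%. An unadjusted p below 0.05 was found for 6 of the 13, where 25.6% of all tested had one, and a log2 change below 0 for 10, where 60.3% did. The median log2 change was −0.51 over the 5 tested protective probe sets and −0.15 over the 8 death-promoting ones, beside −0.10 over all tested probe sets. These medians count several probe sets of the same gene. With only the brightest tested probe set of each gene, they were −0.33 over the 3 protective genes and 0.12 over the 4 death-promoting genes. The protective ones ran from −0.51 (Faim2) to 0.59 (Bcl2) and the death-promoting ones from −0.63 (Casp2) to 0.60 (Tnfrsf1a). Of these brightest probe sets only that of Faim2 passed. All 4 calls depended on the variance model and on the replicates. With quantile normalization, without the intensity trend or without either control array, 0 of the 13 passed in limma, while 4 to 5 had an unadjusted p below 0.05 in each of these settings. With the dim probe sets kept in the test 1 passed, Faim2. An ordinary t statistic passed 0 as well, with 5 at an unadjusted p below 0.05.

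**Figure D2:**
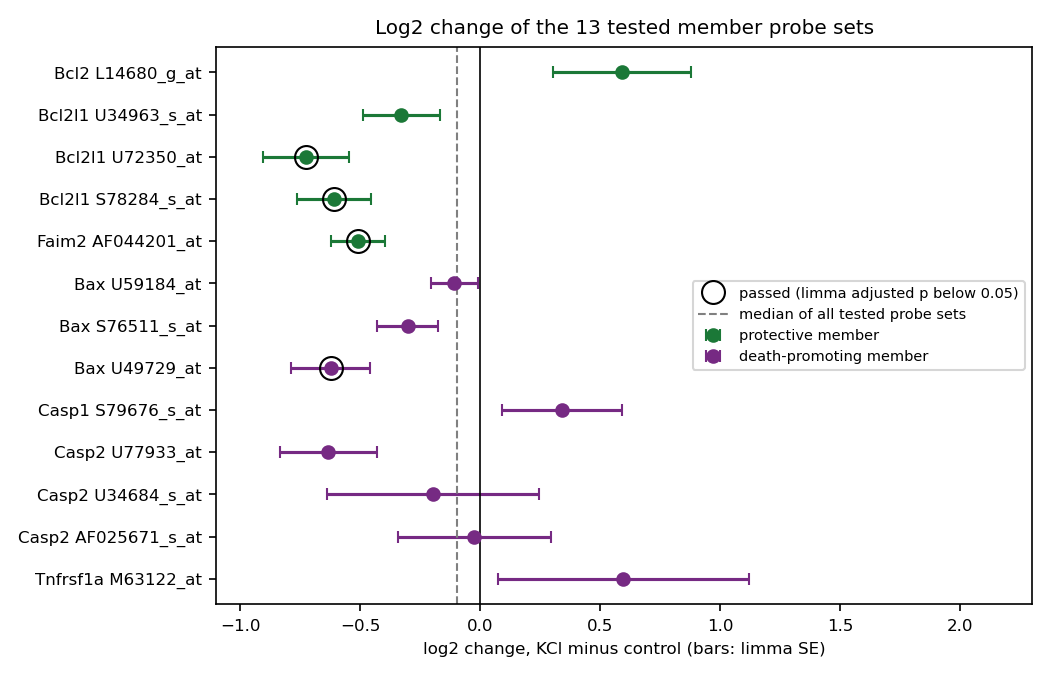
Log2 change, KCl minus control (x axis), of the 13 tested probe sets with limma's SE as bars, for protective and death-promoting genes; black rings mark those that passed, and the dashed line is the median of all 947 tested probe sets. The rings lie between −0.73 and −0.51.

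Cell type markers moved on the same arrays. Of 7 astrocyte marker genes tested, 6 were higher, and their summed intensity was 9974 to 12551 on the KCl arrays, against 5220 to 5484 on the control arrays. Gfap, a defining astrocyte gene, had no tested probe set with its symbol. All 9 neuron marker genes tested were above background on at least 1 array, and 1 was higher and none lower. Their summed intensity was 30836 to 31445 on the KCl arrays, against 32421 to 33721 on the control arrays, and their median log2 change was −0.07. Both microglial and immune markers tested, Itgam and Ccl2, were within background. Both endothelial and fibroblast markers tested, Vcam1 and Icam1, read higher on both KCl arrays than on both control arrays without passing, with a summed intensity of 178 to 208 on the KCl arrays, against 107 to 108 on the control arrays. Of 5 oligodendrocyte lineage genes tested none passed in limma, with 0 probe sets at an unadjusted p below 0.05 (0 by an ordinary t statistic), and their summed intensity was 561 to 639 on the KCl arrays, against 575 to 617 on the control arrays. The 3′ to 5′ ratio of the hexokinase control probe sets, a sign of RNA integrity, was 2.49 and 2.67 on the KCl arrays, against 2.25 and 2.00 on the control arrays. The other control ratios were not raised after KCl. For GAPDH it was 1.19 and 1.17 on the KCl arrays, against 1.17 and 1.23 on the control arrays. For actin it was 1.08 and 1.08, against 1.08 and 1.12. In such mixed cultures, fewer cells of a type and less RNA per cell cannot be told apart, and the part of these shifts in the results was not tested.

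Bcl2l1 was lower on 2 of its 3 tested probe sets. On U72350_at it read 257 and 342 on the KCl arrays, against 518 and 465 on the control arrays. Both KCl values were below both control values. The fall was 1.65-fold and its log2 change −0.73, with an SE of 0.18 as for later ± values on log2 changes (limma adjusted p = 0.038). S78284_s_at read 317 and 305 on the KCl arrays, against 444 and 506 on the control arrays. The groups again lay apart, with a 1.53-fold fall and a log2 change of −0.61 ± 0.15 (limma adjusted p = 0.038). The third tested, U34963_s_at, read 358 and 354 on the KCl arrays, against 403 and 496 on the control arrays. Its values did not overlap either, but its log2 change of −0.33 ± 0.16 did not pass (limma adjusted p = 0.24). The last, U72349_at, was within background on all 4 arrays, at 21.3 and 19.0 on the KCl arrays, against 20.2 and 8.5 on the control arrays, and was not tested. Bcl2l1 is known to give a long protective form and a short form that promotes death, and the sources used here do not say which form each probe set reads.

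The log2 changes of the 3 tested Bcl2l1 probe sets were set against each other within each array. With 2 arrays a group, an exact two-sided permutation test of such a difference cannot give a p below 0.33. The change of U34963_s_at was 0.40 above that of U72350_at, and the within-array difference of these probe sets overlapped between the groups. Its change was 0.28 above that of S78284_s_at, and there the KCl arrays, at 0.26 and 0.30, lay above the control arrays, at −0.06 and 0.06, with the control mean set to 0. U72350_at and S78284_s_at differed by 0.12, with overlapping groups. Between the KCl arrays U72350_at was the least even, and without KCl 1 its log2 change was −0.52 and did not pass (adjusted p = 0.069).

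Bcl2, the founding protective gene of the family, did not pass, and its values lay on the other side from those of Bcl2l1. On L14680_g_at, the 1 tested probe set, it read 122 and 151 on the KCl arrays, against 76.6 and 106 on the control arrays. Both KCl values exceeded both control values, and all 4 were above background, control 1 only just. The log2 change was 0.59 ± 0.29 (limma adjusted p = 0.24). The untested S74122_s_at, within background, read 30.2 and 28.7 on the KCl arrays, against 20.3 and 18.2 on the control arrays. L14680_at, designed on the same accession as L14680_g_at, read 2.8 and 3.4 on the KCl arrays, against 1.0 and 3.8 on the control arrays, with overlap.

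Upstream sequence is shown for Bcl2 and Bcl2l1, the pair of related protective genes whose values lay on opposite sides. The RefSeq promoter table for build GRCr8 holds windows of 300 bases, from 250 before to 50 after an annotated start, for 5 of the 7 genes, 8 windows in all, 4 of them of Bcl2l1. The 250 bases before the start of Bcl2 and before the most upstream start of Bcl2l1, both on the minus strand, follow 5′ to 3′.
Bcl2, chr13:23366901-23367150, minus strand: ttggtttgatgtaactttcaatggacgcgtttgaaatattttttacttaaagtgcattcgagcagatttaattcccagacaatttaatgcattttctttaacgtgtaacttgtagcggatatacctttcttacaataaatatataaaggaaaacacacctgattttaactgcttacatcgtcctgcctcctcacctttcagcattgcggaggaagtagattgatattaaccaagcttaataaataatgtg
Bcl2l1, chr3:161764776-161765025, minus strand: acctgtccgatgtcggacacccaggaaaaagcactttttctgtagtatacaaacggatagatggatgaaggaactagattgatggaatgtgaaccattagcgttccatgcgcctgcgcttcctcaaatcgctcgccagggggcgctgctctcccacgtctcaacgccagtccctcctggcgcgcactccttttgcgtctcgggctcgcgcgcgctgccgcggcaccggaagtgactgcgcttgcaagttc
The full windows held 32.7% G and C for Bcl2 and 59.0% for this start of Bcl2l1, beside a median of 51.7% over 33469 windows. Motifs read by factors that depolarization is known to engage were searched on both strands. None of the 8 windows held the cAMP response element TGACGTCA, its half-site TGACG, which lies within it, the AP-1 motif TGANTCA or the Nr4a motif AAAGGTCA. Of all windows, 1.83% held the full element, 21.2% the half-site, 7.33% the AP-1 motif and 1.43% the Nr4a motif. No capitals appear in the printed sequences because no motif was found, and this says only that these letters are not in these windows.

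Faim2, the inhibitor of Fas-mediated death, fell on its 1 probe set. AF044201_at read 1280 and 1193 on the KCl arrays, against 1813 and 1706 on the control arrays. All 4 values were far above background and the groups lay well apart. The mean intensity was 1237 ± 62 after KCl and 1759 ± 75 in controls (SD, n = 2 each). The fall was 1.42-fold, a log2 change of −0.51 ± 0.11 (limma adjusted p = 0.023), and it passed in 7 of 13 alternatives, against 5 or 6 for each of the other 3 probe sets that passed. Neuron marker genes had a median log2 change of −0.07 on the same arrays, and their probe sets ran from −0.31 to 0.68. Whether shifts in cell types had a part in the fall of Faim2 was not tested. Fas itself was not tested, since its probe set read 3.5 and 3.2 on the KCl arrays, against 1.9 and 1.7 on the control arrays. The Fas ligand gene Faslg, also within background, had a log2 change of −0.60 ± 0.52 and did not pass (limma adjusted p = 0.52).

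Bax, the pore-forming death effector, was lower on 1 of 3 probe sets. U49729_at read 270 and 258 on the KCl arrays, against 441 and 376 on the control arrays, without overlap. The fall was 1.54-fold, with a log2 change of −0.62 ± 0.16 (limma adjusted p = 0.047). S76511_s_at read 582 and 588 on the KCl arrays, against 745 and 699 on the control arrays. It too did not overlap, with a log2 change of −0.30 ± 0.13 that did not pass (limma adjusted p = 0.18). The brightest probe set, U59184_at, read 3257 and 3308 on the KCl arrays, against 3508 and 3566 on the control arrays. Its log2 change of −0.11 ± 0.10 did not pass (limma adjusted p = 0.53) and was close to the −0.10 that is the median of all tested probe sets.

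The 3 Bax probe sets thus lay between −0.62 and −0.11 in log2 change. Set against each other within each array, the change of U59184_at was 0.52 above that of U49729_at, with 0.47 and 0.56 on the KCl arrays and −0.13 and 0.13 on the control arrays. The change of S76511_s_at was 0.32 above that of U49729_at, with KCl at 0.28 and 0.36 and control at −0.07 and 0.07. Neither difference overlapped between the groups, and the smallest exact permutation p with these arrays is 0.33. The sources used here do not name the transcripts that these probe sets read.

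How the protective genes stood against Bax depended on the probe sets chosen. Over U59184_at, the within-array log2 ratio of Bcl2l1 U72350_at was 0.62 lower after KCl, at −0.81 and −0.43 on the KCl arrays, against 0.09 and −0.09 on the control arrays. Over U49729_at the same probe set differed by −0.10, at −0.34 and 0.14 on the KCl arrays, against −0.04 and 0.04 on the control arrays, with overlap. Faim2 was −0.40 over U59184_at and 0.11 over U49729_at, without overlap in either case, so its direction turned with the Bax probe set. The log2 ratio of Bcl2 L14680_g_at to Bax was higher on the KCl arrays over all 3 Bax probe sets, by 0.70 to 1.22, without overlap. The ratios were not tested in a model, and the smallest exact permutation p for each is 0.33.

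**Figure D3:**
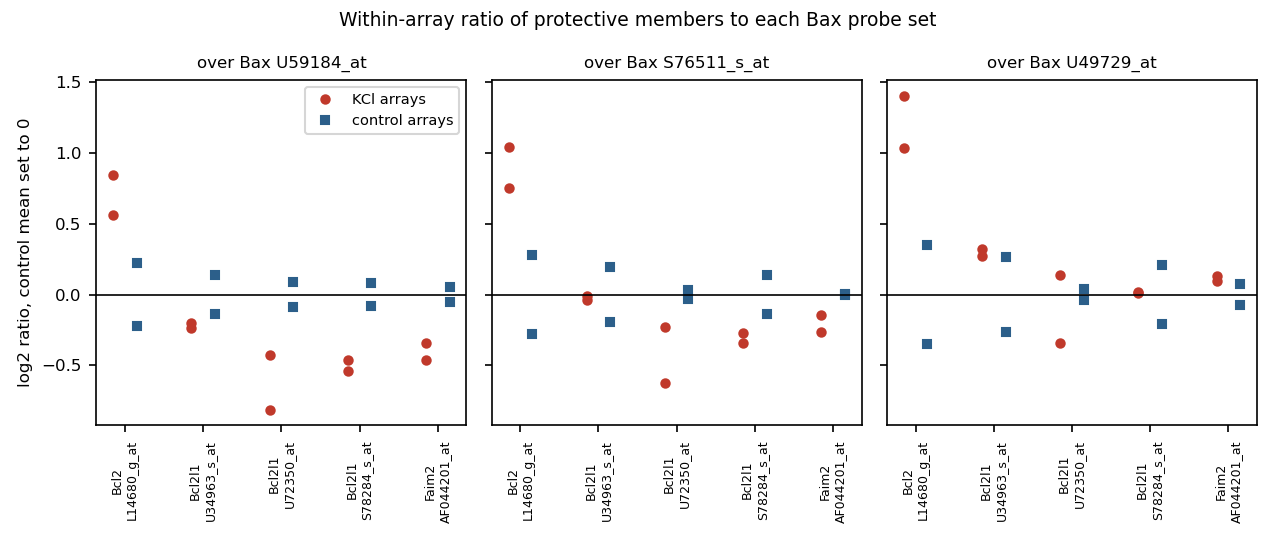
Within-array log2 ratio of each tested protective probe set to each of the 3 Bax probe sets, with the control mean set to 0 (y axis); circles are the 2 KCl arrays and squares the 2 control arrays. Bcl2 lies above its controls in each panel, while Faim2 lies below its controls in the first 2 panels and above them in the third.

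None of the 4 tested caspase probe sets passed in limma, with 1 at an unadjusted p below 0.05 (0 by an ordinary t statistic). Casp2 U77933_at read 251 and 340 on the KCl arrays, against 400 and 514 on the control arrays. The groups did not overlap and the log2 change was −0.63 ± 0.20 (limma adjusted p = 0.089). Leaving out single arrays, it was −0.41 without KCl 1, −0.85 without KCl 2, −0.81 without control 1 and −0.45 without control 2. The other Casp2 probe sets overlapped between the groups. U34684_s_at read 94.0 and 76.9 on the KCl arrays, against 61.0 and 156 on the control arrays, and AF025671_s_at read 102 and 73.0 on the KCl arrays, against 83.1 and 92.4 on the control arrays. Their log2 changes were −0.20 ± 0.44 and −0.02 ± 0.32. Control 1 of U34684_s_at and KCl 2 of AF025671_s_at lay within background.

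Casp1 S79676_s_at read 148 and 166 on the KCl arrays, against 143 and 107 on the control arrays. The values did not overlap, though KCl 1 and control 1 were close, and the log2 change of 0.34 ± 0.25 did not pass (limma adjusted p = 0.44). The other Casp1 probe sets, both designed on 1 accession, lay within background and overlapped, at 4.7 and 35.4 on the KCl arrays, against 37.8 and 7.4 on the control arrays, for U14647_g_at. U14647_at read 5.2 and 8.6 on the KCl arrays, against 12.7 and 3.5 on the control arrays.

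Tnfrsf1a was the least even of the tested probe sets. M63122_at read 212 and 87.5 on the KCl arrays, against 56.1 and 145 on the control arrays. Control 1 lay within background. The groups overlapped, with KCl 2 below control 2, and the log2 change of 0.60 ± 0.52 did not pass (limma adjusted p = 0.52). Its direction rested on single arrays, being −0.04 without KCl 1, −0.09 without control 1, 1.23 without KCl 2 (adjusted p = 0.0061, the 1 setting in which it passed) and 1.28 without control 2.

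**Figure D4:**
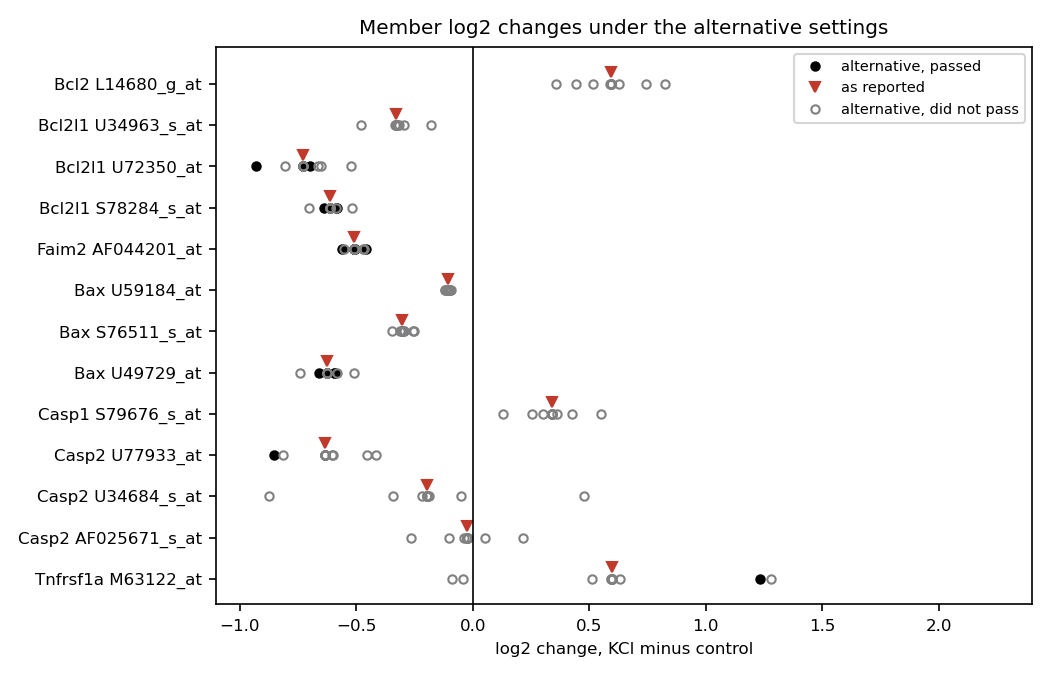
Log2 change, KCl minus control (x axis), of the 13 tested probe sets as reported (triangles) and under each alternative setting (filled circles passed, open circles did not). Bcl2l1, Faim2, Bax and Casp2 U77933_at keep 1 side of 0, while Tnfrsf1a M63122_at runs from −0.09 to 1.28.

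Other genes of the pathway were read from lists for the same processes. Of 17 other Bcl2 family genes listed, 5 were on the array by symbol, and all 5 were tested, through 12 probe sets. In limma none passed or had an unadjusted p below 0.05, nor did any by an ordinary t statistic. Bok, a Bax-like effector, had log2 changes of −0.08 ± 0.11 on the brighter and −0.26 ± 0.13 on the dimmer of its probe sets. Bad, which neutralizes Bcl2 and Bcl-xL, had −0.11 ± 0.10 and −0.16 ± 0.13. Bcl2l2, a protective relative, had −0.19 ± 0.21. Hrk, a death activator of neurons, ran from −0.10 to 0.32 on 4 probe sets. Bcl2l11, which encodes the death activator Bim, had −0.02 ± 0.17 on its brightest probe set. A dim probe set of Bcl2l11 read 46.7 and 74.4 on the KCl arrays, against 23.4 and 35.8 on the control arrays. All but the higher KCl value lay within background, and the log2 change was 1.03 ± 0.55 (limma adjusted p = 0.27). The other tested Bcl2l11 probe set, within background on every array, had −0.12 ± 0.41, with overlap. The median over these 12 probe sets was −0.09, beside −0.10 over all tested probe sets.

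Few other caspases and receptors had a probe set with their symbol on the array, and fewer passed the filter on dim probe sets. Casp6, an executioner caspase, read 67.5 and 94.8 on the KCl arrays, against 60.5 and 50.8 on the control arrays, on its 1 tested probe set. All but KCl 2 lay within background, and the log2 change of 0.53 ± 0.38 did not pass (limma adjusted p = 0.43). Of 23 genes listed as caspases, apoptosome parts and inhibitors, 2 were on the array by symbol, and Casp6 was the only 1 tested. Of 18 receptor, ligand and adaptor genes 7 were on the array and 2 were tested, through 3 probe sets. In limma neither passed, with 0 unadjusted p-values below 0.05 (1 by an ordinary t statistic). Ngfr, the p75 neurotrophin receptor, read 308 and 319 on the KCl arrays, against 269 and 280 on the control arrays, on X05137_at, the dimmer of its 2 probe sets, with a log2 change of 0.19 ± 0.16, and the brighter had 0.02 ± 0.12.

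Survival and stress signalling genes were read from the other lists. Of the 21 tested probe sets of trophic and survival signalling 5 were higher, all of Bdnf, and 1 lower, and of the 12 of stress signalling 1 was higher and 3 lower, beside 5.49% higher and 5.28% lower over all tested probe sets. The lists differ in size and were not tested against each other. Of 10 tested genes of trophic and survival signalling, 1 rose and 1 fell on their brightest probe sets. Bdnf, a trophic factor for cortical neurons, had a log2 change of 2.55 ± 0.17 on its brightest probe set (limma adjusted p = 2.9e-05), with 5 of 7 probe sets passing, and Ntf3, neurotrophin 3, had −0.71 ± 0.16 (limma adjusted p = 0.025). Creb1, which encodes the CREB factor, read 70.0 and 73.8 on the KCl arrays, against 40.0 and 40.2 on the control arrays. All but KCl 2 lay within background, and KCl 2 exceeded it only just. The log2 change of 0.84 ± 0.41 did not pass (limma adjusted p = 0.24). Ntrk3, the receptor of neurotrophin 3, lay within background, at 22.1 and 33.8 on the KCl arrays, against 55.0 and 45.3 on the control arrays, and did not pass (limma adjusted p = 0.38).

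Of 5 tested genes for stress kinases, p53 and calpains, 1 rose and 1 fell on their brightest probe sets. Jun, a target of stress kinases, rose 1.79-fold, at 719 and 532 on the KCl arrays, against 357 and 334 on the control arrays (limma adjusted p = 0.018). Mapk14, the p38α kinase gene, fell on 2 of 6 probe sets, the brightest by 0.60 on the log2 scale (limma adjusted p = 0.038). A dimmer probe set of Mapk9, a Jun kinase gene, also fell, at 144 and 140 on the KCl arrays, against 272 and 248 on the control arrays (log2 change −0.87 ± 0.19, limma adjusted p = 0.024), while its brightest did not pass (−0.51 ± 0.15, limma adjusted p = 0.062). Capn2, the m-calpain gene, had a log2 change of −0.30 ± 0.15 that did not pass. The median over this list's 12 probe sets was −0.45, beside −0.30 over the 13 cell death probe sets described first. Of the 12, 6 were of Mapk14 and 3 of Mapk9. With only the brightest probe set of each of the 5 genes, the list's median was −0.30.

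**Figure D5:**
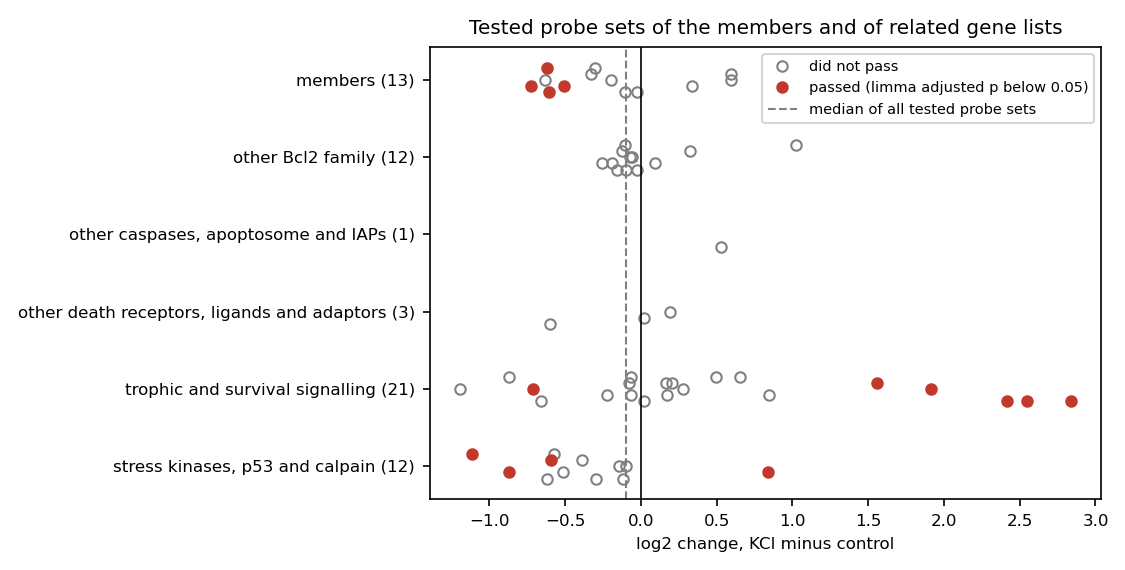
Log2 change, KCl minus control (x axis), of every tested probe set of the 7 genes and of 5 lists of related genes, with the number of probe sets after each name; filled points passed and open points did not, and the dashed line is the median of all 947. No probe set of the other Bcl2 family genes passed, and those furthest right are of Bdnf.

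The probe sets most like each gene over the 4 arrays were found by the distance between log2 intensities after subtracting each probe set's mean. Nearest to Faim2 were Atp2b2, a plasma membrane calcium pump gene, at a distance of 0.053, Prkcb, a protein kinase C gene, at 0.060, and Mapk9 at 0.072. Atp2b2 and Prkcb fell as well, with log2 changes of −0.49 and −0.45. Nearest to the brightest probe set of Bax was one of Bad, at 0.014, followed by Mapk9 and Pde4a. This Mapk9 probe set, rc_AI231354_at, was not the one near Faim2, L27112_s_at. Bad read 3407 and 3491 on the KCl arrays, against 3664 and 3764 on the control arrays. Nearest to Bcl2l1 U34963_s_at were Cntn1, Camkk1 and Cdc42bpa, at 0.022 to 0.094, and nearest to Casp2 U77933_at were Nlgn3, Cacna1c and Mapk14, at 0.12 to 0.16. Bcl2 lay nearest to Itgam, Adrb1 and Hspb1, at 0.23 to 0.29, and Casp1 to Kcnh7, Pou3f3 and Gh1, at 0.071 to 0.12. Itgam and Gh1 were within background on every array, and Kcnh7 on the control arrays. Tnfrsf1a had no near neighbour, the closest, P2rx2, being at 0.49. With 4 arrays such likeness is a description.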

How the data were processed

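Biotin-labelled cRNA from 5 µg of total RNA was hybridized to 1-colour Affymetrix arrays, per the labels' protocols. The deposited table holds linear probe set intensities, and the sources used here name neither the summarizing algorithm nor its scaling. The 2% trimmed means of the arrays lay between 502.0 and 502.4, so the intensities were used as deposited and taken to log2. Gene symbols came from the platform annotation, which gave 1 symbol to 1137 of 1263 probe sets and none to 118. Another 59 control probe sets were left out.

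KCl and control arrays were compared in limma (version 3.58.1, R 4.3.3; lmFit, eBayes with an intensity trend) with two-sided tests and Benjamini-Hochberg adjustment over 947 probe sets. The procedure was tested on simulated data with independent normal errors. The planted log2 changes were larger than those of the cell death probe sets that passed, so the simulation does not bear on calls of that size. Errors are limma's SE. The number of arrays limits the precision, with a median SE of 0.21 in log2 change. The labels name no test.

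The genes, lists and tests were chosen with earlier results of these data known. Named were all probe sets of the 7 genes, pathway genes that passed or had the 4 smallest p-values of a list, Fos, and the 3 nearest patterns; Bcl2l11, Fas, the genes at background and other probe sets of these genes were added after their values were seen. Alternatives were quantile normalization, rescaling, centring, a pseudocount of 16, other filters on dim probe sets, a replicate block, other variance models and leaving out each array.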

Additional observations from a re-analysis of the deposited data

Results flagged for a closer look

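Among untested probe sets of the 7 genes, the related lists and a Fas control probe set, 7 read higher on both KCl arrays than on both control arrays, all within background. Tested were 13 of the 18 probe sets of the 7 genes and 49 of the 63 of the lists. Of those left, Birc2 AF081503_at and Il1b M98820_g_at lay lower on both KCl arrays. Over all tested probe sets KCl was higher without overlap in 21.4% and lower in 36.5%, and the share over all untested probe sets was not computed. The untested Bcl2 probe set S74122_s_at had a ratio of 1.532 of KCl over control geometric means, at 30.2 and 28.7 on the KCl arrays, against 20.3 and 18.2 on the control arrays. AFFX-MurFAS_at, an Affymetrix control probe set annotated as Fas, had a ratio of 4.643, at 26.3 and 27.7 on the KCl arrays, against 5.2 and 6.5 on the control arrays. For Fas D26112_s_at the ratio was 1.862, for Casp6 AF025670_at, at 18.6 and 13.5 on the KCl arrays, against 9.3 and 9.1 on the control arrays, it was 1.723, and for Tnf E02468cds_s_at 1.983. For Il18 it was 4.73 on U77777_s_at and 1.623 on AJ222813_s_at. None of these ratios was tested, and all depend on the background.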

How the results depend on the processing

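Over all 947 probe sets 102 passed as reported, against 50 with a replicate block, 21 without the intensity trend and 0 with an ordinary t statistic, where 157 had an unadjusted p below 0.05. Leaving out single arrays, it ranged between 178 (without KCl 2) and 11 (without control 2), with the spread then taken from the remaining pair. Of the 13 tested cell death probe sets, 4 passed as reported, and 0 with quantile normalization, a replicate block, no intensity trend or an ordinary t statistic. With no filter on dim probe sets 1 passed, Faim2, among 1263 tested. Leaving out single arrays, 0 to 6 passed, 0 without control 1 and 0 without control 2, 3 without KCl 1 and 6 without KCl 2. Under rescaling, a pseudocount and the stricter filter the same 4 passed, and under centring 3, Bcl2l1 S78284_s_at being lost. The cause of these differences was not tested. The replicate numbers of the labels do not tie KCl to control arrays, and same-numbered arrays did not deviate together (r = −0.03 across probe sets, which are not independent replicates), so the paired fit is given only here. The log2 changes of the 4 probe sets that passed kept their direction in all 13 alternatives. Direction was reversed without KCl 1 for Tnfrsf1a (−0.04), without KCl 2 for Casp2 AF025671_s_at (0.21), without control 1 for Tnfrsf1a (−0.087) and without control 2 for Casp2 U34684_s_at (0.48) and AF025671_s_at (0.05). Those left-out ranges were −0.087 to 1.28 for Tnfrsf1a, −0.26 to 0.21 for AF025671_s_at and −0.87 to 0.48 for U34684_s_at. The 5 dim probe sets of Bcl2, Bcl2l1 and Casp1 lay too close to background for any comparison.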

Other observations

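Several further genes of cell death and inflammation were measured only within background and are given as values. Birc2, which encodes the caspase inhibitor cIAP1, read 15.3 and 12.0 on the KCl arrays, against 22.6 and 28.4 on the control arrays. Tnf, the ligand of Tnfrsf1a, read 18.6 and 16.4 on the KCl arrays, against 5.5 and 14.1 on the control arrays. Tnfrsf1b, the other tumour necrosis factor receptor, read 14.7 and 11.1 on the KCl arrays, against 8.4 and 13.7 on the control arrays, with overlap. Of the interleukins that caspase 1 matures, Il1b read 9.7 and 5.7 on the KCl arrays, against 18.3 and 17.9 on the control arrays, on its brighter probe set. Il18 read 6.8 and 17.9 on the KCl arrays, against 1.7 and 3.2 on the control arrays, on its brighter probe set. None of these was tested.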
